A study of Homo sapiens with 6 samples.

Results

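The acyltransferases that start glycerolipid synthesis were examined in MDA-MB-231 cells, an established line from a human breast carcinoma of basal type. The set holds 9 genes, the 4 glycerol-3-phosphate acyltransferase (GPAT) genes GPAM, GPAT2, GPAT3 and GPAT4 and the 5 acylglycerol-phosphate acyltransferase (AGPAT) genes AGPAT1 to AGPAT5, out of 65198 gene rows. They were taken by name as a family, and the family was chosen by the FPKM of GPAT2, which was nearly lost in shHOTAIR. The values of GPAT2 are therefore a description with no test, while the other 8 genes were tested in a fit of all genes. The shHOTAIR group was 3 repeats of MDA-MB-231 cells that carry a tetracycline-inducible hairpin against the long non-coding RNA HOTAIR. The shCtrl group was 3 repeats of cells that carry an inducible hairpin of scrambled sequence. Both groups received 1 µg/ml doxycycline for 96 h. The labels name 1 derivative of the line per group, so a difference between the derivatives and a difference caused by the hairpin cannot be told apart, and p-values measure the spread between repeats. In such bulk RNA, fewer cells that express a gene and less RNA per cell cannot be told apart either.

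GPAT enzymes join a fatty acyl chain from acyl-CoA to glycerol 3-phosphate and make lysophosphatidic acid. AGPAT enzymes add the second chain and make phosphatidic acid, from which cells build both membrane phospholipids and triacylglycerol, the stored fat of lipid droplets. GPAM and GPAT2 are mitochondrial, whereas GPAT3 and GPAT4 belong to the endoplasmic reticulum. GPAT2 is unusual in the family: it is expressed mainly in testis, has been tied in mouse germ cells to the making of piRNAs, the small RNAs that silence transposons, and is known as a cancer-testis gene that has been studied in MDA-MB-231 cells.

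Expression was given as FPKM, fragments scaled by transcript length and library depth, so levels of different genes can be set side by side. How many fragments each library held was not given in the sources used here. Summed FPKM was 1620978 to 1820768 in shHOTAIR and 2224150 to 2569505 in shCtrl, while scaling factors from the median of gene ratios lay between 0.992 and 1.02. VIM, CD44, EGFR, KRT8 and KRT18 had at least 70.4 FPKM in every library, PGR was listed at 0 in all, and ESR1 and CDH1 did not exceed 0.114 FPKM. Of VIM, CD44, EGFR, KRT8 and KRT18, all but CD44 differed between the groups (limma adjusted p = 0.945 for CD44). VIM averaged 393 FPKM in shHOTAIR and 948 FPKM in shCtrl (log2 change -1.27, limma adjusted p = 0.000616). Higher in shHOTAIR were EGFR (log2 change 1.02, limma adjusted p = 0.0011), KRT8 (0.75, 0.0127) and KRT18 (0.62, 0.00706). Among markers of other cells, PTPRC (leukocytes) averaged 0.0781 ± 0.0568 FPKM in shHOTAIR and 0.205 ± 0.0421 FPKM in shCtrl (SD, n = 3 each), with groups that did not overlap. PECAM1 (endothelium) did not exceed 0.418 FPKM in any library, and the adipocyte genes ADIPOQ and PLIN1 did not exceed 0.0266 and 0.0937 FPKM. Of the germ cell markers, DDX4 did not exceed 0.0507 FPKM, while SYCP3 was at 20.9 to 31.1 FPKM over the 6 libraries. COL1A1, a collagen gene of fibroblasts that tumour lines also express, was higher, at 3.27, 3.82 and 3.45 FPKM in shHOTAIR, against 1.08, 1.58 and 1.33 FPKM in shCtrl (log2 change 0.96, limma adjusted p = 0.00572). The part of these markers in the results was not tested. HOTAIR itself was listed at 0, 0 and 0.0113 FPKM in shHOTAIR 1, 2 and 3, against 0, 0.0128 and 0.0132 FPKM in shCtrl 1, 2 and 3. An exact two-sided permutation test of these values gave p = 0.4 (n = 3 per group, smallest possible p = 0.1). HOTAIR was at or near 0 in shCtrl too (mean 0.00867 FPKM), so the test cannot decide and the knockdown could not be checked.

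RefSeq (GRCh38.p14) gave promoter windows, from 250 bases before to 50 bases after a transcript start, for 7 of the 9 genes, all but GPAT4 and AGPAT5. Those of GPAT2, the gene that was nearly lost, are shown because its RefSeq starts differ in base composition, and that of GPAT3, the gene that rose, is set beside them. Each is written 5′ to 3′ with CpG dinucleotides in capitals. The GPAT2 windows, all on the minus strand, are chr2:96036216-96036515 (a), chr2:96035925-96036224 (b) and chr2:96034867-96035166 (c), and the GPAT3 window shown is chr4:83535857-83536156 on the plus strand, the first of 2 that differ by a shift of 1 base.
GPAT2 a: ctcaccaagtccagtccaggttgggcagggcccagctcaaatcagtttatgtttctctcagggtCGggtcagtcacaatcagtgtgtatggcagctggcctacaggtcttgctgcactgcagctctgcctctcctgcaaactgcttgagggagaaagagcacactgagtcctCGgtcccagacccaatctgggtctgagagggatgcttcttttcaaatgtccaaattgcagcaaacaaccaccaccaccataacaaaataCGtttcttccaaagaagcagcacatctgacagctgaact
GPAT2 b: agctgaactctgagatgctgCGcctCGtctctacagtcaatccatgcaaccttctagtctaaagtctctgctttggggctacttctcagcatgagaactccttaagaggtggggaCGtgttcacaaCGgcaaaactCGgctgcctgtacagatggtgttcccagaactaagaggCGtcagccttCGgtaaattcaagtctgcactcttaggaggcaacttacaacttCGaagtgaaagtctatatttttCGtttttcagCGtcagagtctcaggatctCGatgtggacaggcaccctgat
GPAT2 c: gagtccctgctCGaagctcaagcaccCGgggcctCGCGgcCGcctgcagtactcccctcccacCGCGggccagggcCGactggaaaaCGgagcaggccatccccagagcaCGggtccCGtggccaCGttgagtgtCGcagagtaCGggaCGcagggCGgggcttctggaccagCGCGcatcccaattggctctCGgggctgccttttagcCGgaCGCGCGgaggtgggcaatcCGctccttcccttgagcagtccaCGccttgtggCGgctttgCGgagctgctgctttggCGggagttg
GPAT3: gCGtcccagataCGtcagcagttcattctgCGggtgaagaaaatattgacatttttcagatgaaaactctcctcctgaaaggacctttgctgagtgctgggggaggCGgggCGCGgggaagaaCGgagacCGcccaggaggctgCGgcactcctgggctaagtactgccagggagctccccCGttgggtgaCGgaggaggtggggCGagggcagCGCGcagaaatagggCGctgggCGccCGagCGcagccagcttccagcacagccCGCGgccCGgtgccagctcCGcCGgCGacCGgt
GPAT2 a holds 3 CpGs, GPAT2 b 11 and GPAT2 c 28, and the GPAT3 window holds 25, against a median of 14 over 35116 windows of 300 bases. Of all windows 24.5% have as few CpGs as GPAT2 a, 46.9% as few as b and 75.8% as few as c. The letters CCAAT, searched on both strands, occur in 34.6% of windows. They are found at 1 place in GPAT2 a and at 2 overlapping places on opposite strands in c. The letters GGGCGG, on either strand, occur in 45.0% of windows, including GPAT2 c and GPAT3. FPKM is a value per gene, so which GPAT2 start was used in these cells was not measured.

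GPAT2 (ENSG00000186281, chromosome 2, 96021946 to 96039451 on GRCh38, minus strand) was at 0.0987, 0.267 and 0.156 FPKM in shHOTAIR 1, 2 and 3, against 9.04, 8.88 and 9.75 FPKM in shCtrl 1, 2 and 3. All 3 shHOTAIR libraries lay far below all 3 shCtrl libraries, and none was at 0. The mean was 0.174 ± 0.0857 FPKM in shHOTAIR and 9.22 ± 0.462 FPKM in shCtrl (SD, n = 3 each), so shHOTAIR held 1.88% of the shCtrl level, a 53.1-fold difference of means. On the log2(FPKM + 1) scale the change was -3.12, and it was -5.13 with 0.1 and -5.76 with 0.01 added in place of 1, since the added constant shrinks changes of low values. Among 11443 protein-coding genes with a shCtrl mean of at least 1 FPKM, GPAT2 ranked 7th by the ratio of shCtrl to shHOTAIR means, and 8 of these genes were at or below 5% of their shCtrl mean. Of those 8, B3GNT8, AC243547.3 and NKAIN2 each owed their shCtrl mean to 1 library. GPAT2, PNMA8A, ZNF518A, CHST15 and CARD16 were high in all 3 shCtrl libraries. These genes were named after their values were seen.

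**Figure D1:**
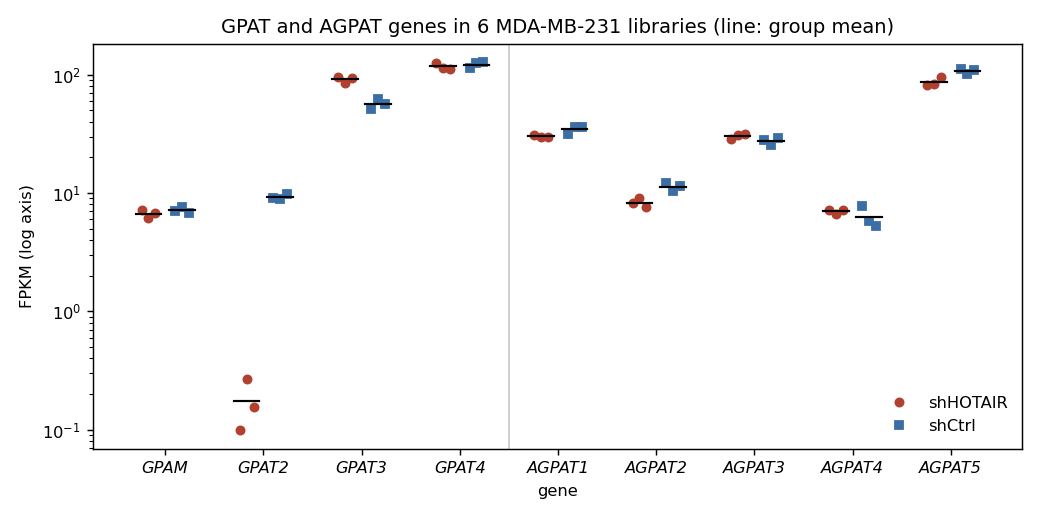
FPKM of each GPAT and AGPAT gene on a log axis, with shHOTAIR libraries as circles and shCtrl libraries as squares (n = 3 each) and a line at each group mean. GPAT2 alone is displaced by more than an order of magnitude, at 0.0987 to 0.267 FPKM in shHOTAIR and 8.88 to 9.75 FPKM in shCtrl.

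Part of the GPAT2 transcript sequence is duplicated elsewhere on chromosome 2. Of its 6044 distinct 31-base words in GENCODE 29 transcripts, 42.4% also occur in transcripts of other genes on either strand, and the pseudogene GPAT2P1 alone shares 30.2%. For 7 of the other genes the share was between 0% and 11.04%, and AGPAT1 shares 25.2%, all in antisense and chiefly with PPT2-EGFL8. GPAT2P1 was listed at 0 in all 3 shHOTAIR libraries and at 0, 0.0193 and 0 FPKM in shCtrl 1, 2 and 3. GPAT2P2, a further pseudogene copy, was listed at 0.0352, 0 and 0 FPKM in shHOTAIR, against 0, 0 and 0.133 FPKM in shCtrl. Both pseudogenes were thus at or near 0 in both groups. How reads that match several places were counted, and whether strand was used, was not given in the sources used here.

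FAHD2CP, a pseudogene whose span overlaps GPAT2 on the opposite strand, was at 1.00, 1.21 and 1.84 FPKM in shHOTAIR, against 1.52, 1.45 and 1.6 FPKM in shCtrl, and the groups overlapped. Of the 5 protein-coding genes on either side, 5 of the 10 reached a mean of 1 FPKM. In limma none passed an adjusted p of 0.05. FAHD2A, ANKRD36C and TMEM127, all lower in shHOTAIR, had an unadjusted p under 0.05 and groups that did not overlap. Groups did not overlap in 43.0% of all genes tested (23.2% lower), and the share at that unadjusted p was not counted. The 5 neighbours under 1 FPKM were at or near 0 in both groups, so a fall of these could not be seen. ANKRD36C, the one with the lowest log2 change, was at 3.62, 3.16 and 2.46 FPKM in shHOTAIR, against 5.13, 5.60 and 3.76 FPKM in shCtrl (log2 change -0.51, limma adjusted p = 0.0883). STARD7, which carries phosphatidylcholine to mitochondria, was at 127, 129 and 174 FPKM in shHOTAIR, against 160, 138 and 124 FPKM in shCtrl. ADRA2B, ASTL, DUSP2 and TRIM43B were listed at 0 in all 6 libraries. The median log2 change of the 50 nearest tested protein-coding genes was -0.12, and GPAT2 centred on them had a log2 change of -3.0. Centred values here subtract, in each library, the median of those 50 genes after each gene's mean was removed (the gene-centred form, chosen after seeing the data). The same median of plain log2 values gave -2.81 for GPAT2, and such values are given for other genes where they end a call.

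**Figure D2:**
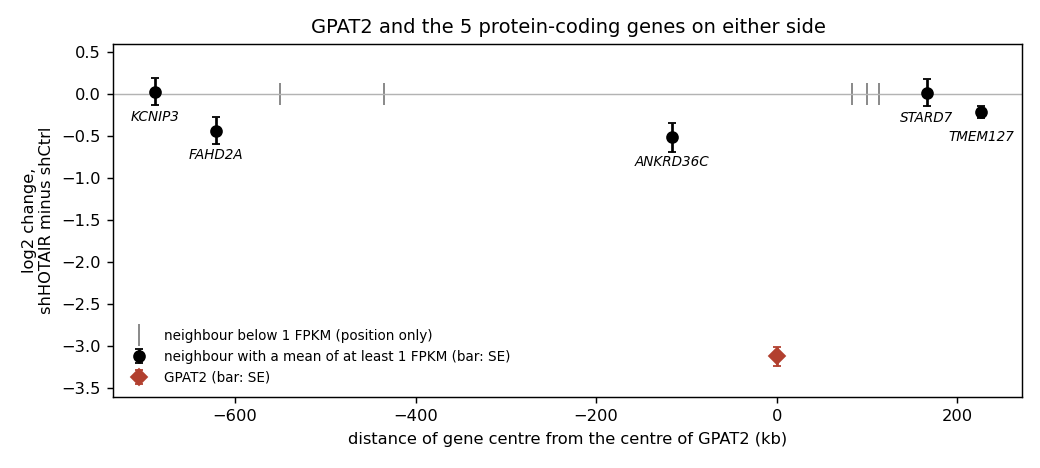
Log2 change (shHOTAIR minus shCtrl, bars SE from limma) against the distance of each gene's centre from that of GPAT2 in kb, for GPAT2 and the 5 protein-coding genes on either side. GPAT2 is at -3.12, and the 5 neighbours with a mean of at least 1 FPKM lie between -0.51 and 0.03.

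The profiles most like that of GPAT2 were looked for among all tested protein-coding genes, by the Euclidean distance over the 6 libraries of log2(FPKM + 1) after subtraction of each gene's shCtrl mean. The nearest 5 were SULT1B1, a sulfotransferase (distance 0.481), PNMA8A (0.686), the trypsinogen gene PRSS3 (0.689), the D-type cyclin gene CCND2 (0.736) and the cytokine gene IL24 (1.01). They lie on chromosomes 4, 19, 9, 12 and 1. SULT1B1 was at 0.580, 0.634 and 0.521 FPKM in shHOTAIR, against 11.9, 11 and 9.69 FPKM in shCtrl. The likeness is a description over 6 libraries.

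GPAT3, which rises as fat cells differentiate, was the GPAT gene that rose. Its FPKM was 96.4, 85.5 and 93.9 in shHOTAIR 1, 2 and 3, against 51, 61.8 and 56.7 in shCtrl 1, 2 and 3. Every shHOTAIR library was above every shCtrl library, with means of 91.9 ± 5.71 FPKM in shHOTAIR and 56.5 ± 5.37 FPKM in shCtrl (SD, n = 3 each). The log2 change of 0.70 (SE 0.0882, 95% interval 0.48 to 0.91) passed in limma (adjusted p = 0.00468). GPAT3 (chromosome 4, 83535914 to 83605875) lies among genes that were higher as well, with a median log2 change of 0.40 over its 50 nearest tested neighbours. Centred on them, GPAT3 had a log2 change of 0.30 (limma adjusted p = 0.0305).

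GPAT4 (chromosome 8, 41577187 to 41625001), the most abundant GPAT transcript, was at 126, 114 and 112 FPKM in shHOTAIR, against 113, 125 and 127 FPKM in shCtrl. The groups overlapped, and the log2 change of -0.06 (95% interval -0.24 to 0.12) did not pass (limma adjusted p = 0.609). AC009630.3, whose span overlaps GPAT4 in antisense and which holds 8.3% of the 31-base words of GPAT4, was at 36.2, 31.2 and 34.0 FPKM in shHOTAIR, against 36.0, 34.1 and 37.7 FPKM in shCtrl. GPAM, the mitochondrial outer membrane enzyme that directs acyl chains toward triacylglycerol in liver, was at 7.17, 6.11 and 6.77 FPKM in shHOTAIR, against 7.02, 7.6 and 6.78 FPKM in shCtrl. Its log2 change of -0.08 (95% interval -0.29 to 0.12) did not pass either (limma adjusted p = 0.493). GPAM lies on chromosome 10 (112149864 to 112215377) among genes with a median log2 change of -0.43, and centred on them it was higher in shHOTAIR (0.35, limma adjusted p = 0.0266).

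Among the AGPAT genes, AGPAT2 and AGPAT5 fell. AGPAT2 (chromosome 9, 136673143 to 136687423), whose loss in people causes congenital lipodystrophy, was at 8.20, 9.01 and 7.64 FPKM in shHOTAIR, against 12.1, 10.3 and 11.5 FPKM in shCtrl, and the groups did not overlap. Its log2 change was -0.40 (SE 0.0886, 95% interval -0.62 to -0.18, limma adjusted p = 0.0258). AGPAT5 (chromosome 8, 6708357 to 6759666), a mitochondrial member, was the most abundant AGPAT transcript, at 81.4, 84.1 and 95.1 FPKM in shHOTAIR, against 111, 102 and 109 FPKM in shCtrl. These groups did not overlap either, and the log2 change was -0.30 (SE 0.0768, 95% interval -0.50 to -0.11, limma adjusted p = 0.0389). Both falls were small beside that of GPAT2 and near the threshold. The AGPAT2 call was lost without shHOTAIR 1, shHOTAIR 3, shCtrl 1 or shCtrl 3, with adjusted p up to 0.0937, and the AGPAT5 call when any library other than shHOTAIR 3 was left out, at adjusted p up to 0.114. Without the filter on low values neither passed (limma adjusted p = 0.0567 for AGPAT2 and 0.0714 for AGPAT5), and AGPAT5 did not pass without the variance trend (0.0545). Centred on neighbouring genes, AGPAT5 had a log2 change of -0.20 (limma adjusted p = 0.10) in the gene-centred form and -0.02 (0.905) on plain log2 values. AGPAT2 kept its call in the gene-centred form, and on plain log2 values it was at -0.33 (0.0756).

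AGPAT1 (chromosome 6, 32168212 to 32178096), which lies in the class III region of the major histocompatibility complex, was at 30.7, 29.6 and 29.8 FPKM in shHOTAIR, against 31.8, 36.2 and 36.2 FPKM in shCtrl. Its groups did not overlap, but the log2 change of -0.20 (95% interval -0.37 to -0.04) did not pass over all genes (limma adjusted p = 0.0804), and it passed without shCtrl 1 (-0.26, adjusted p = 0.0325). The span of AGPAT1 overlaps those of EGFL8 and PPT2-EGFL8 on the other strand, so their reads may be shared. AGPAT3 (chromosome 21, 43865186 to 43986536) was at 28.7, 31 and 31.6 FPKM in shHOTAIR, against 27.8, 25.7 and 28.9 FPKM in shCtrl, with overlapping groups and a log2 change of 0.15 (95% interval -0.02 to 0.31, limma adjusted p = 0.173). Its 50 nearest tested genes had a median log2 change of 0.40, and centred on them AGPAT3 was lower (-0.25, limma adjusted p = 0.0430). AGPAT4 (chromosome 6, 161129979 to 161274061) was at 7.21, 6.70 and 7.15 FPKM in shHOTAIR, against 7.71, 5.81 and 5.30 FPKM in shCtrl, with shCtrl 1 above the other 5 libraries (log2 change 0.15, 95% interval -0.17 to 0.48, limma adjusted p = 0.441).

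**Figure D3:**
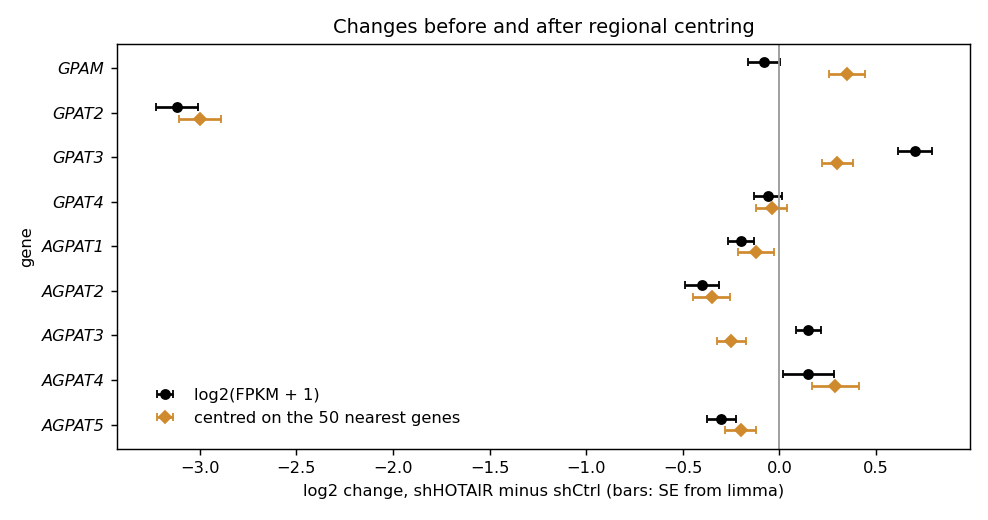
Log2 change of each gene (shHOTAIR minus shCtrl, bars SE from limma) as measured (circles) and after centring on the 50 nearest tested protein-coding genes (diamonds). GPAT2 stays near -3 in both, GPAT3 moves to 0.30, and GPAM (0.35) and AGPAT3 (-0.25) change direction.

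All 9 genes reached the mean of 1 FPKM that the test required, GPAT2 through its shCtrl libraries alone. Of the 8 genes other than GPAT2, 1 was higher, 2 were lower and 5 did not pass, which is 37.5%, beside 28.7% of the protein-coding genes tested and 23.8% of all 15934 genes tested (11.5% higher, 12.4% lower). Separate groups were seen in 4 of the 8 (GPAT3 higher, AGPAT1, AGPAT2 and AGPAT5 lower), beside 43.0% of all genes tested (19.9% higher, 23.2% lower). The median log2 change of the 8 was -0.07, beside -0.03 over all genes. Leaving out shHOTAIR 1 or shCtrl 3 reduced the count of 3 to 1, while the count over all genes tested fell from 3797 to 3159 and 2470.

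The make-up of the GPAT transcripts differed between the groups while the family totals overlapped. GPAT3 made up 42.0%, 41.5% and 44.2% of summed GPAT FPKM in shHOTAIR and 28.3%, 30.4% and 28.3% in shCtrl. GPAT2 made up 0.0430%, 0.130% and 0.0733% in shHOTAIR and 5.01%, 4.37% and 4.87% in shCtrl. The mean of GPAT2 was 9.05 FPKM lower in shHOTAIR and that of GPAT3 was 35.4 FPKM higher. Summed GPAT expression was 229, 206 and 212 FPKM in shHOTAIR and 181, 203 and 200 FPKM in shCtrl, so every shHOTAIR library was above every shCtrl library. Summed AGPAT expression went the other way, at 156, 160 and 171 FPKM in shHOTAIR and 191, 180 and 191 FPKM in shCtrl. The sum of all 9 genes was 379 ± 10.5 FPKM in shHOTAIR and 382 ± 10.1 FPKM in shCtrl (SD, n = 3 each). These sums are descriptions with no test.

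In shHOTAIR the order of mean FPKM was GPAT4, GPAT3, AGPAT5, AGPAT3, AGPAT1, AGPAT2, AGPAT4, GPAM and GPAT2. The ranges of GPAT3 and AGPAT5, of AGPAT3 and AGPAT1, and of AGPAT4 and GPAM overlapped there. In shCtrl the order was GPAT4, AGPAT5, GPAT3, AGPAT1, AGPAT3, AGPAT2, GPAT2, GPAM and AGPAT4, and only GPAM and AGPAT4 overlapped. GPAT2 thus stood above GPAM, the other mitochondrial GPAT gene, in every shCtrl library and below it in every shHOTAIR library.

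**Figure D4:**
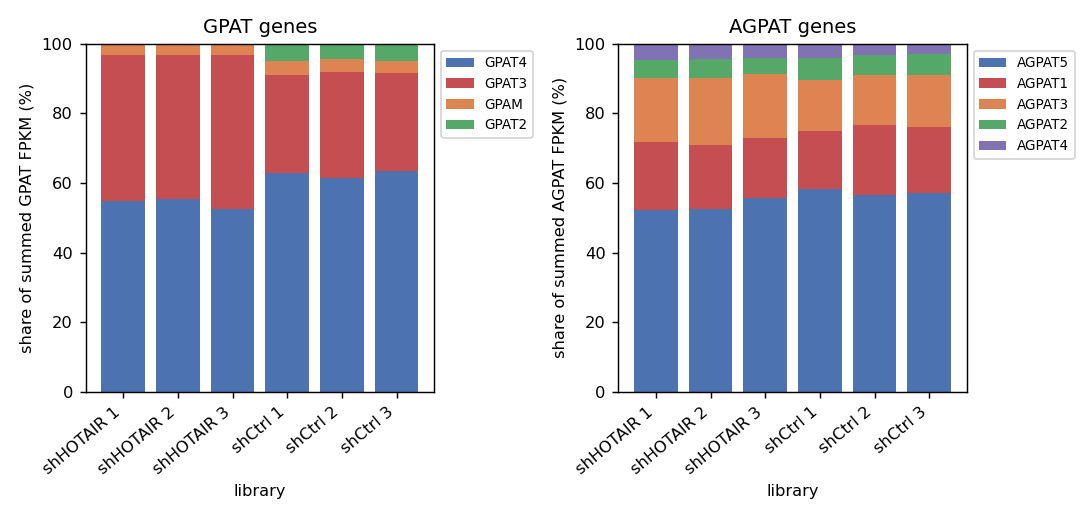
Share of each gene in the summed FPKM of the GPAT genes (left) and of the AGPAT genes (right), as stacked bars that sum to 100% in each library. The GPAT2 band of 4.37% to 5.01% in shCtrl is at most 0.130% in shHOTAIR, where the GPAT3 band is 41.5% to 44.2%.

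The genes that feed these enzymes and use their products were counted in 7 lists. Of 103 genes 85 were tested, and 8 were higher and 16 lower, which is 28.2%, close to the 28.7% of all protein-coding genes tested. With regional centring the balance differed: 12 were higher and 11 lower after centring of plain log2 values on neighbours, and 12 were higher and 13 lower after the gene-centred form. The balance over all genes moved the same way, from 1829 higher and 1968 lower without centring. Among the 11571 protein-coding genes that were centred, 1420 were higher and 1237 lower on plain log2 values. In the gene-centred form 1437 were higher and 1326 lower. Leaving out shCtrl 1 reduced the count of 24 to 14 (16.5%), and leaving out shCtrl 3 reduced it to 11 (12.9%). Over all genes tested the count fell as well, from 3797 to 2508 (15.7%) and 2470 (15.5%). The median log2 change of the 85 pathway genes was -0.04, beside -0.03 for all protein-coding genes.

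Fatty acid activation and glycerol 3-phosphate supply had 2 genes higher and 4 lower of 11 tested (54.5%, beside 28.7% of the protein-coding genes tested). ACSL1, an acyl-CoA synthetase that supplies triacylglycerol synthesis in several tissues, fell to 17.2 ± 1.81 FPKM in shHOTAIR, against 43.3 ± 3.85 FPKM in shCtrl (log2 change -1.28, limma adjusted p = 0.00138). ACSL5 fell too (50.4 ± 4.65 FPKM in shHOTAIR, 80.2 ± 7.13 FPKM in shCtrl), but it lies on chromosome 10 and centred on its neighbours its log2 change was -0.24 (limma adjusted p = 0.115). ACSL4, which prefers polyunsaturated chains, rose (138 ± 17.4 FPKM in shHOTAIR, 97.0 ± 5.78 FPKM in shCtrl), as did its X-chromosome region, and centred it was at -0.14 (limma adjusted p = 0.368), or 0.02 (0.919) on plain log2 values. The acyl-CoA-binding protein gene DBI (log2 change -0.48) and the fatty acid transporter gene SLC27A4 (-0.24) fell. Centred, SLC27A4 was at -0.12 (limma adjusted p = 0.290), and on plain log2 values DBI was at -0.16 (0.345) and SLC27A4 at 0.04 (0.820). The calls of ACSL4, DBI and SLC27A4 were lost without shCtrl 3 and without shHOTAIR 2, those of DBI and SLC27A4 also without shCtrl 1, those of ACSL4 and SLC27A4 also without shCtrl 2, and that of SLC27A4 without either remaining library, with limma adjusted p up to 0.133.

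Downstream, phosphatidic acid is dephosphorylated to diacylglycerol. LPIN1, a phosphatidic acid phosphatase, fell to 78.5 ± 22.9 FPKM in shHOTAIR, against 142 ± 6.74 FPKM in shCtrl (log2 change -0.88, limma adjusted p = 0.0368), and PLPP3, a lipid phosphatase of the cell surface, rose to 26.9 ± 3.07 FPKM in shHOTAIR, against 14 ± 0.677 FPKM in shCtrl (0.88, limma adjusted p = 0.00266). The LPIN1 call was lost on leaving out any library other than shHOTAIR 1 and shHOTAIR 2, at adjusted p up to 0.119. Of the 8 tested genes 25.0% were called, beside 28.7% of the protein-coding genes tested, and the other 6 did not pass. Among them DGAT2, which makes triacylglycerol, was at 5.28 ± 0.972 FPKM in shHOTAIR and 7.13 ± 0.614 FPKM in shCtrl (limma adjusted p = 0.103).

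Among enzymes that make phosphatidic acid by other routes, 2 of 10 tested genes were lower and 8 did not pass. DGKI, a diacylglycerol kinase, fell to 7.77 ± 1.28 FPKM in shHOTAIR, against 19.7 ± 2.74 FPKM in shCtrl (log2 change -1.24, limma adjusted p = 0.00341). PLD2, a phospholipase D, fell by 0.49 on the log2 scale (limma adjusted p = 0.0391), a call lost on leaving out any library other than shHOTAIR 3, at adjusted p up to 0.126, and also on centring by its neighbours (0.0592). DGKQ had a log2 change of -0.40 (limma adjusted p = 0.0919). In the list of CDP-diacylglycerol and head-group enzymes 1 gene was higher, 3 were lower and 15 did not pass (21.1% called, beside the same 28.7%). CRLS1, the cardiolipin synthase of mitochondria, rose to 120 ± 9.42 FPKM in shHOTAIR, against 74.5 ± 3.62 FPKM in shCtrl (log2 change 0.68, limma adjusted p = 0.00321), and centred on its chromosome 20 neighbours it was at 0.29 (limma adjusted p = 0.0369), or at 0.19 (0.148) when plain log2 values were centred. PTDSS2, a phosphatidylserine synthase (-0.37), and the ethanolamine pathway genes PCYT2 (-0.31) and SELENOI (-0.33) fell. Centred, SELENOI was at -0.17 (limma adjusted p = 0.213) and PCYT2 at -0.24 (0.0953), and on plain log2 values SELENOI was at -0.14 (0.385), PCYT2 at -0.29 (0.0656) and PTDSS2 at -0.31 (0.0535). The PCYT2 call was lost when any library other than shHOTAIR 2 was left out and the SELENOI call without any but shCtrl 2, with limma adjusted p up to 0.137.

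Of the 10 lysophospholipid acyltransferases, which remodel finished phospholipids, LPCAT2 rose (6.33 ± 1.01 FPKM in shHOTAIR, 2.78 ± 0.713 FPKM in shCtrl, limma adjusted p = 0.0136) and 9 did not pass. That is 10.0% called, beside 28.7% of the protein-coding genes tested. The LPCAT2 call was lost without shCtrl 3 (adjusted p = 0.0586). MBOAT1 (log2 change 0.35) and LPCAT1 (0.15) came nearest to passing, with limma adjusted p of 0.0831 and 0.0965, and MBOAT1 passed without shHOTAIR 2 (0.46, adjusted p = 0.0455) and on centred plain log2 values (0.47, 0.0215). Lipid droplet and lipase genes had 2 higher and 2 lower of 12 tested (33.3%, beside 28.7% of the protein-coding genes tested). G0S2, an inhibitor of the main triacylglycerol lipase, rose to 240 ± 5.42 FPKM in shHOTAIR, against 190 ± 13.4 FPKM in shCtrl, and ABHD5, an activator of that lipase, fell to 69.7 ± 2.96 FPKM in shHOTAIR, against 87.3 ± 5.36 FPKM in shCtrl (limma adjusted p = 0.0178 and 0.0195). The droplet protein gene FITM2 rose (log2 change 0.37) and PNPLA3 fell (-0.64), while the droplet coat gene PLIN2 was at 21.5 ± 0.424 FPKM in shHOTAIR and 21.5 ± 1.69 FPKM in shCtrl, named after its values were seen. Each of these 4 calls was lost without 1 or more libraries, those of G0S2 without shHOTAIR 2 or 3, of ABHD5 without shHOTAIR 2 or shCtrl 3, of PNPLA3 without any but shHOTAIR 1 and 2 and of FITM2 without any but shCtrl 2, with limma adjusted p up to 0.0910. On plain log2 values centred on neighbours, ABHD5 was at -0.19 (0.0903).

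Regulators of lipid synthesis had 1 gene higher and 4 lower of 15 tested (33.3%, beside 28.7% of the protein-coding genes tested). PPARG, a nuclear receptor that drives fat storage, rose to 35.9 ± 0.879 FPKM in shHOTAIR, against 21.3 ± 0.60 FPKM in shCtrl (log2 change 0.72, limma adjusted p = 0.000924). INSIG1, a sterol-sensing inhibitor of SREBP processing and itself an SREBP target, fell to 14.7 ± 1.70 FPKM in shHOTAIR, against 36.6 ± 1.49 FPKM in shCtrl (log2 change -1.26, limma adjusted p = 0.00110). PPARA (-0.88), the liver X receptor NR1H2 (-0.56) and the coactivator PPARGC1B (-0.46) fell as well. The PPARGC1B call was lost on leaving out any library other than shHOTAIR 1 and shCtrl 2, at limma adjusted p up to 0.0676. The calls of PPARG, INSIG1, PPARA and NR1H2 were kept without any 1 library.

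**Figure D5:**
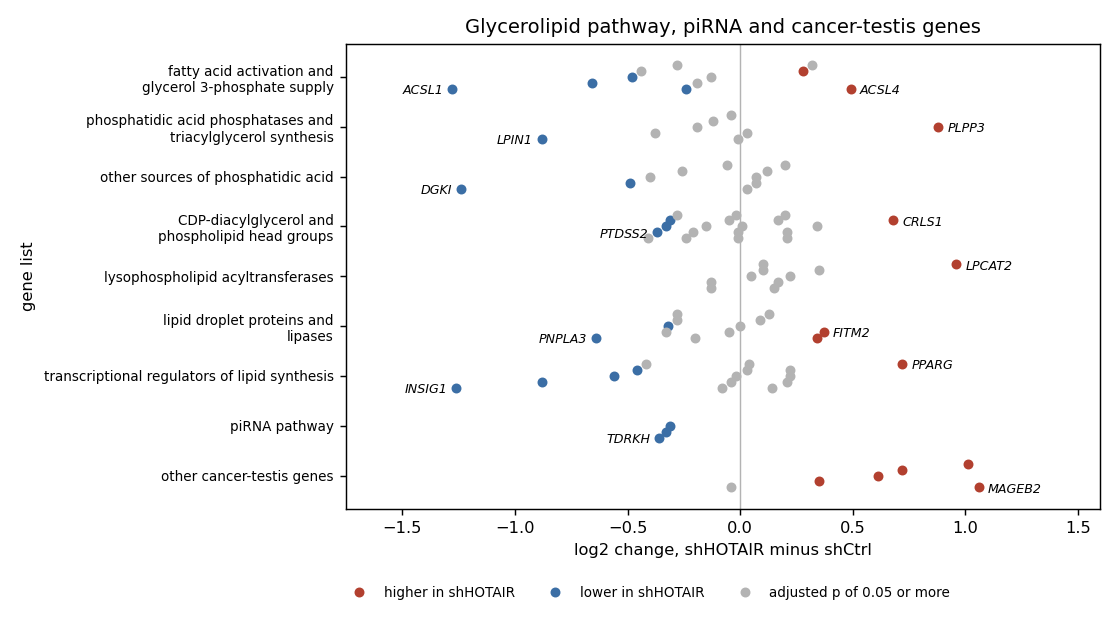
Log2 change (shHOTAIR minus shCtrl) of each tested gene in the 7 glycerolipid lists, the piRNA list and the cancer-testis list, with genes past a limma adjusted p of 0.05 in colour and the outermost such gene of each direction named. Both directions occur in 5 of the 7 glycerolipid lists, and the 3 tested piRNA genes lie between -0.36 and -0.31.

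Because GPAT2 is tied to the piRNA pathway and to cancer-testis genes, both lists were set beside it. Of 21 piRNA pathway genes 18 stayed under a mean of 1 FPKM, including PIWIL2, the partner reported for GPAT2 in mouse germ cells, at 0.345 ± 0.0855 FPKM in shHOTAIR and 0.411 ± 0.0912 FPKM in shCtrl. The 3 tested genes fell, beside 12.4% of all genes tested, namely TDRKH (9.17 ± 0.656 FPKM in shHOTAIR, 12.1 ± 1.16 FPKM in shCtrl), TDRD7 (3.70 ± 0.106 FPKM in shHOTAIR, 4.91 ± 0.302 FPKM in shCtrl) and PLD6, a mitochondrial surface protein (5.32 ± 0.357 FPKM in shHOTAIR, 6.84 ± 0.155 FPKM in shCtrl), with limma adjusted p of 0.0386, 0.0313 and 0.0280. Their calls were lost without most single libraries, those of TDRKH and TDRD7 without any but shCtrl 3 and that of PLD6 without any but shHOTAIR 1, with adjusted p up to 0.118. Centring on neighbours ended the calls of PLD6 (0.0544) and, on plain log2 values, of TDRD7 (0.0532). MAEL, under the 1 FPKM limit and named after its values were seen, was at 0.728 ± 0.113 FPKM in shHOTAIR and 0.310 ± 0.0661 FPKM in shCtrl.

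Of 25 other cancer-testis genes 6 were tested and 5 rose (83.3%, beside 11.5% of all genes tested), all of them on the X chromosome. MAGEB2 rose to 108 ± 6.54 FPKM in shHOTAIR, against 51.2 ± 3.00 FPKM in shCtrl (log2 change 1.06, limma adjusted p = 0.000893), and DDX53 to 9.87 ± 0.561 FPKM in shHOTAIR, against 4.41 ± 0.528 FPKM in shCtrl (1.01, limma adjusted p = 0.00196). MAGEA12 (0.72), MAGEA6 (0.61) and CT83 (0.35) lie among genes with median log2 changes of 0.61, 0.61 and 0.65, and centred on them they were at 0.11, -0.003 and -0.30, or at 0.24, 0.05 and -0.40 on plain log2 values. Centred, MAGEA12 and MAGEA6 no longer passed (limma adjusted p of 0.125 or more), and CT83 turned lower, at a limma adjusted p down to 0.0135. The MAGEA genes are related in sequence and may share reads, which was not measured for them. The CT83 call was lost on leaving out any library other than shHOTAIR 2, at limma adjusted p up to 0.120. SYCP3, on chromosome 12, was at 25.6 ± 5.19 FPKM in shHOTAIR and 26.1 ± 3.02 FPKM in shCtrl (limma adjusted p = 0.896).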

How the data were processed

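Poly(A)-selected RNA of 6 samples was measured, grouped by the hairpin in their titles, which match the column names. The authors deposited 1 table of FPKM values, with TopHat2 2.0.13, DESeq and GRCh38 named in the submitters' processing notes with no role. The program, annotation, filters and strand setting behind the FPKM were not given in the sources used here, and the depth behind each value is unknown. Of 65198 rows 56807 matched GENCODE 29 on GRCh38 by Ensembl identifier. No pair of libraries had equal values above 0 in more than 0.00628% of tested genes.

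Values were analysed as log2(FPKM + 1). The 15934 genes whose FPKM averaged 1 or more across all 6 libraries were fitted with limma 3.58.1 in R 4.3.3 (moderated test, variance trended on intensity, replicate numbers not blocked), then Benjamini-Hochberg adjustment over all of them was applied with a threshold of 0.05. The fit was tried on simulated data with planted log2 changes larger than that of any member but GPAT2. This trial does not cover smaller changes or differences between the derivatives. Intervals are 95% intervals of the log2 change, and SD is over 3 libraries. Shared 31-base words were counted over all GENCODE 29 transcripts. Regional centring subtracted, in each library, the median over the 50 nearest tested protein-coding genes, after each gene's mean was removed, a form chosen after seeing the data. Python 3.11.15 with numpy 2.4.6, pandas 2.3.3 and scipy 1.17.1 was used for the rest, and matplotlib 3.10.9 for figures. The 9 genes, the lists and the tests were chosen with earlier results of these data known. Named genes were the 9 members, up to 5 genes per list with the smallest p among those past the threshold (the nearest 3 where fewer than 3 passed), the 5 genes most like GPAT2, its 5 neighbours on either side and overlapping genes. Alternatives were other pseudocounts, filters, scalings and variance models, a replicate block, each library left out and regional centring.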

Additional observations from a re-analysis of the deposited data

How the results depend on the processing

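The change of GPAT2 lay between -3.18 and -3.08 when any 1 library was left out, and no value of it exists with a minimum mean of 5 FPKM. The GPAT3 rise passed under all 17 alternatives, with log2 changes of 0.30 to 0.76 and limma adjusted p up to 0.0438. Leaving out 1 library at a time gave 2470 to 3159 changed genes in place of 3797, 1 to 2 of the 8 members in place of 3, and 11 to 21 pathway genes in place of 24. Without a filter on low values 1 member and 15 pathway genes passed. Same-numbered libraries showed no shared deviation (correlations of -0.022, 0.007 and -0.031). Whether they were handled together was not given in the sources used here. With the replicate block 1740 genes, 1 member (GPAT3) and 9 pathway genes passed.

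Directions turned with regional centring only. On plain log2 values, GPAM was at 0.32 (higher, adjusted p = 0.0482), GPAT4 at 0.05, AGPAT1 at 0.01, AGPAT3 at -0.48, SLC27A4 at 0.04, DGAT2 at 0.10 and CT83 at -0.40. On values with each gene's mean subtracted first, a form added after seeing the data and the one given in the report, GPAM was at 0.35, AGPAT3 at -0.25, ACSL4 at -0.14, DGKQ at 0.07, LPCAT1 at -0.07, MAGEA6 at -0.003 and CT83 at -0.30. The cause was not tested. The number of libraries, 3 per group, limits what small changes can be told from the spread.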
